A study of Mus musculus with 18 samples.

Results

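Autophagy machinery genes are the genes whose products build the autophagosome, the double membrane that encloses cytoplasm and carries it to the lysosome. A list of 38 mouse genes was taken, and each was found by its symbol among the 55450 genes of the deposited table. All 38 were present as 1 row each, and all 38 passed the filter on low counts in each of 3 cell lines. They were described by role: 5 genes of the ULK initiation complex, 6 of the class III phosphatidylinositol 3-kinase (PI3K) complex, 6 of lipid supply and phagophore growth, 10 of the conjugation systems, 5 of the ATG8 family, 5 cargo receptors and the fusion SNARE Stx17.

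RNA was measured in mouse cancer cells in culture, all labelled wild type, after 100 µM sildenafil citrate, an inhibitor of the cyclic GMP phosphodiesterase PDE5, or after the solvent DMSO (control). 4T1 (breast carcinoma) and MC38 (colon adenocarcinoma) were treated for 24 hours and LLC (Lewis lung carcinoma) for 48 hours, with 3 sildenafil and 3 control libraries per line and 18 in all. 4T1 was kept in an RPMI medium and the other lines in DMEM, so line, medium and, for LLC, time cannot be told apart. Whether the 3 libraries of a group stem from independent dishes is not stated, so every p-value here rests on library-to-library spread alone, part of which could be technical. Each line stands for 1 cell population, and nothing here tests other tumours of its tissue.

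Library totals were 26348654 to 61600646 counts. 4T1 expressed all 7 epithelial markers examined above 1 CPM (the usual per-library scaling of a count, here with TMM factors), while MC38 had 2 of them above it (Krt8 and Cldn4) and LLC had Krt8 alone. Epcam and Cldn7 were at 0 in MC38 and LLC, and the rest lay at or under 1 CPM. The epithelial markers summed to 1876 to 1933 CPM in sildenafil libraries of 4T1 against 2133 to 2199.9 CPM in controls, 2107 to 2262 CPM against 2609 to 2671 CPM in MC38, and 182 to 189 CPM against 203 to 228 CPM in LLC. The sums did not stand for every marker. By the test used below, 3 of the 7 rose and 4 fell in 4T1, where 33.5% of all genes tested rose and 33.3% fell. In MC38, 4 were tested, of which 0 rose and 1 fell, and in LLC the 1 tested fell. MC38 had 5 of 6 fibroblast markers above 1 CPM, at 599 to 607 CPM in sum with sildenafil and 608 to 628 CPM in controls. The 7 leukocyte markers summed to 5.07 to 5.94 CPM with sildenafil and 3.08 to 3.4 CPM in controls of MC38, and to 3 to 3.7 CPM and 1.43 to 1.56 CPM in LLC; Csf1r rose in MC38 and Lyz2 in LLC, and Cd3e was at 0 in every group. Sildenafil libraries of LLC had summed fibroblast marker levels of 145 to 156 CPM, against 67.6 to 76.6 CPM in its controls, with 51.4 to 59.7 CPM against 26.5 to 29.1 CPM in 4T1. Of the 6 fibroblast markers, Pdgfra and Pdgfrb alone were above 1 CPM in LLC, and Pdgfra alone in 4T1, so these sums rest on few genes. The part of these markers in the results was not tested. Gm26917, a non-coding gene used as a sign of RNA quality, was at 232 to 265 CPM in sildenafil libraries of 4T1, against 153 to 159 CPM in controls. In MC38 it was at 5064 to 6203 CPM in sildenafil libraries and 9376 to 14803 CPM in controls. In LLC it was at 5852 to 13768 CPM in sildenafil libraries and at 29464, 20845 and 9659.9 CPM in control replicates 1, 2 and 3, so control replicate 3 stood apart from the other controls. Of other nuclear RNAs, Malat1 was at 3232 to 4088 CPM with sildenafil and 2084 to 2153 CPM in controls of MC38, and at 95.4 to 128 CPM and 47 to 81.3 CPM in 4T1 (adjusted p 0.062). Neat1 was at 533 to 681 CPM with sildenafil and 1256 to 1572 CPM in controls of LLC. The part of these RNAs in the results was not tested. A fit with the Gm26917 level as a covariate is given with the counts. In 4T1 and MC38 that level followed treatment too closely for the fit to separate them.

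Autophagosome formation starts when the ULK kinase complex activates the class III PI3K complex, which marks a patch of endoplasmic reticulum with phosphatidylinositol 3-phosphate. Lipid carriers and WIPI proteins extend the membrane, and a pair of ubiquitin-like conjugation systems attaches ATG8 proteins (the LC3 and GABARAP groups) to it. Cargo receptors bind both ATG8 proteins and cargo, which many but not all of them recognise by a ubiquitin tag, and are themselves degraded with it. The transcription factors TFEB and TFE3 are known to raise transcription of many of these genes through the CLEAR element, whose core is the E-box CACGTG.

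The stretches before 3 members are shown: Gabarapl2 and Map1lc3b, ATG8 genes that rose in every line, and Atg3, the conjugating enzyme for ATG8 proteins, which fell in 4T1 and MC38 and whose stretch holds the E-box more than once. Each is the 250 bases before the start annotated by RefSeq on GRCm38.p6, plus strand, with CACGTG in capitals. They lie at chr8:111940453-111940702 (Gabarapl2), chr8:121590188-121590437 (Map1lc3b) and chr16:45158579-45158828 (Atg3). GENCODE M21 puts the Gabarapl2 start at the same base, and the others 77 bases (Map1lc3b) and 44 bases (Atg3) earlier, so those last bases are inside the gene there.
Gabarapl2: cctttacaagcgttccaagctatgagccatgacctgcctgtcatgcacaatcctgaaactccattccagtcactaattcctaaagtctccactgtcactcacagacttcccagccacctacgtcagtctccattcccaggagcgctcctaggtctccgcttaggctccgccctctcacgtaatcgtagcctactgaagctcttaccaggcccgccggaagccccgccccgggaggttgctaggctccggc
Map1lc3b: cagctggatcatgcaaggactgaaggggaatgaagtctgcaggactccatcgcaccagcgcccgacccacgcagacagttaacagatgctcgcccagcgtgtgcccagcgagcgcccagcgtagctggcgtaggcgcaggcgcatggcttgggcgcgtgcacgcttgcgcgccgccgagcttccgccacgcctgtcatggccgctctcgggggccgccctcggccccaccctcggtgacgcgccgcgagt
Atg3: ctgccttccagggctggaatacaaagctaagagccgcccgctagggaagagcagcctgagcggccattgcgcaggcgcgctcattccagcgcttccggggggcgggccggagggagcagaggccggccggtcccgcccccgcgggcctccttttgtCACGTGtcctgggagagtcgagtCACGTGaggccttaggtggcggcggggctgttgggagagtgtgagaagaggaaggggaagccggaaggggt

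The Atg3 stretch holds 2 copies of CACGTG, starting at positions -94 and -71 from the RefSeq start, and the second lies within the longer TCACGTGA. Neither ATG8 stretch shown holds it. Windows from 250 bases before to 50 after the start were present for 32 of the 38 members; that of Gabarap is not shown, since 227 of its first 250 bases are inside the gene as GENCODE places it. CACGTG, which reads the same on both strands, was in the windows of 4 members (Atg3, Atg5, Atg7 and Atg14), or 12.5%, against 8.09% of 27025 genes with a window. The RefSeq starts of Atg14 and Atg7 lie 2215 and 27999 bases inside the gene as GENCODE places it. All of the first 250 bases of both windows are thus inside the gene there, so those matches are not before it by that annotation. TCACGTGA was in 1 member (3.12%), against 1.12% of all genes. TTGCATCA, a stretch like those bound by ATF4 with C/EBP proteins, and TGTTTAC, a FOXO-type stretch, were searched on both strands and were in the window of 0 of the 32 members, against 1.03% and 4.05% of all genes. These are matches of letters in a short window and say nothing of binding.

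In 4T1 cells 23 of the 38 members rose with sildenafil and 5 fell, where 33.5% of 13914 genes tested rose and 33.3% fell (edgeR quasi-likelihood F test, Benjamini-Hochberg adjusted p under 0.05). Their median log2 fold change, sildenafil over control, was 0.3044, against 0.0023 over all genes tested. In MC38 18 members rose and 1 fell, where 19.5% of 13363 genes rose and 18.3% fell, and the members' median was 0.1607 against 0.004 over all genes. In LLC 11 members rose and 3 fell, where 15.1% of 13561 genes rose and 12.2% fell, and the members' median was 0.0732 against -0.0062. Called in either direction were 28, 19 and 14 members in 4T1, MC38 and LLC, or 73.7%, 50% and 36.8%, beside 66.7%, 37.8% and 27.3% of all genes. The members' share was above that of all genes in each line, and more of the called members were higher than lower. Among genes at 5 CPM or more in at least 3 libraries, 77.2%, 47.7% and 32.8% were called in either direction in 4T1, MC38 and LLC. Of the members kept there, 25 rose and 5 fell in 4T1, 18 and 1 in MC38, and 10 and 3 in LLC. The excess in either direction was thus small among genes of higher level, while more members still rose than fell. Levels here are shares of a library's RNA, so fewer cells of a kind and less RNA per cell cannot be told apart.

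**Figure D1:**
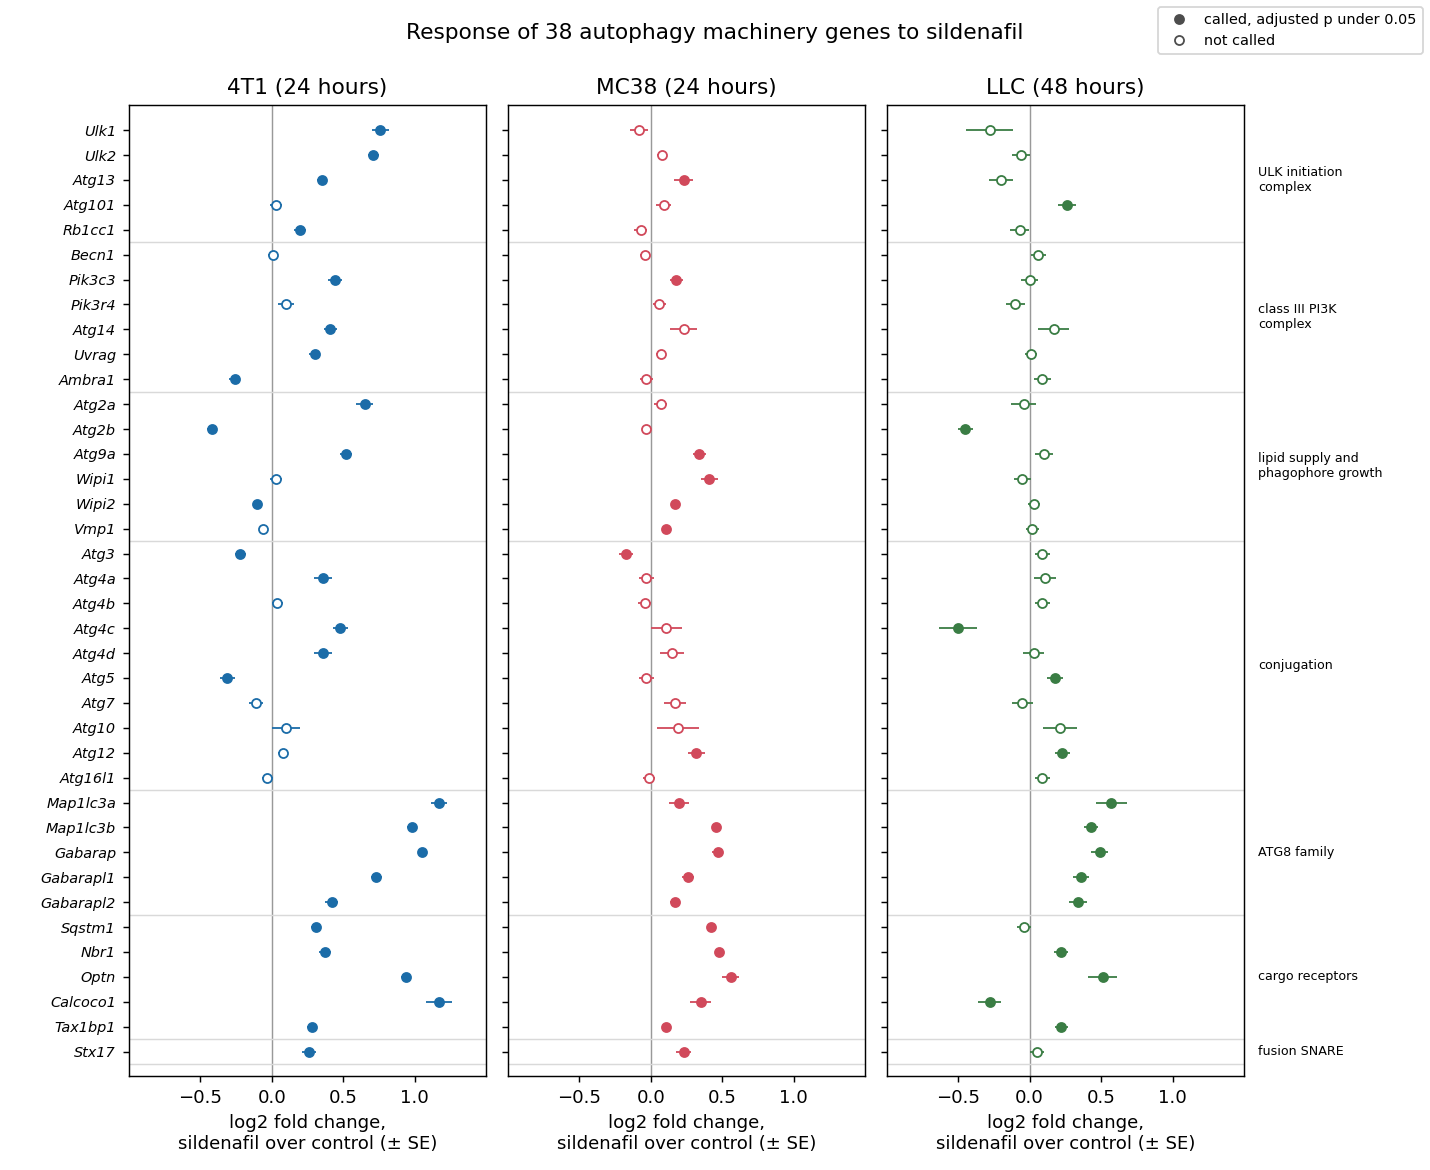
Log2 fold change, sildenafil over control (x axis, with its standard error), of the 38 genes grouped by role, in 4T1, MC38 and LLC; filled points passed adjusted p under 0.05. All 5 ATG8 family genes lie right of 0 and are filled in each line, while the ULK and conjugation genes scatter about 0 in LLC.

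By gene, 8 members rose in all 3 lines: the 5 ATG8 family genes and the receptors Nbr1, Optn and Tax1bp1. Another 8 rose in 4T1 and passed the test in neither MC38 nor LLC, 5 rose in 4T1 and MC38 and passed in LLC in neither direction, and 6 passed in no line. Calcoco1, Wipi2, Atg4c and Atg5 passed in opposite directions in 2 lines. Gm26917 moved with treatment in these libraries, and treatment accounted for 0.967, 0.85 and 0.464 of the variance of its log2 level in 4T1, MC38 and LLC. A fit of both treatment and that level therefore cannot separate them in 4T1 and MC38, and calls kept or lost there do not test the part of Gm26917. With that level as a covariate, 6 members rose in 4T1, 6 in MC38 and 9 in LLC, and 0, 0 and 1 fell, where 8.54%, 7.69% and 16.8% of all genes tested were called in either direction. The members' median log2 fold changes were then 0.16, 0.15 and 0.06. Those still called were Map1lc3a, Map1lc3b, Gabarap, Gabarapl1, Optn and Tax1bp1 in 4T1, and Atg9a, Map1lc3b, Gabarap, Sqstm1, Nbr1 and Calcoco1 in MC38. In LLC they were Atg2b, which fell, and Atg12, the 5 ATG8 genes, Nbr1, Optn and Tax1bp1. Some values in 4T1 were smaller than without the covariate, such as Atg2a at 0.0086 and Ulk1 at 0.1481, and others larger, such as Atg4d at 0.8669. In LLC the count that fell was 7 without control replicate 3, and 1 without control replicate 1 or 2 or sildenafil replicate 2 or 3. Over all genes, 43.6% were called without control replicate 3, and 16.8% and 18.1% without control replicate 1 or 2.

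Beside the counts by role here and below, 33.5%, 19.5% and 15.1% of all genes tested rose in 4T1, MC38 and LLC. The shares that fell were 33.3%, 18.3% and 12.2%. Of the ULK initiation complex, 4 of 5 genes rose in 4T1, 1 in MC38 and 1 in LLC, and none fell. The rises in MC38 and LLC were near the shares of all genes. The medians were 0.35, 0.08 and -0.07. Ulk1, the kinase that starts autophagosome formation, had 51.3, 50.3 and 56.6 CPM in sildenafil libraries of 4T1 and 33.6, 30.2 and 29 CPM in controls. All sildenafil libraries lay above all controls, and Ulk1 rose 1.7-fold (log2 fold change 0.76 ± 0.0586 (SE), adjusted p 1.4e-07). In MC38 Ulk1 averaged 17.8 ± 0.302 CPM with sildenafil and 18.9 ± 1.63 CPM in controls (SD, n = 3 each), and the groups overlapped (adjusted p 0.342). LLC had 15.6, 12 and 13 CPM of Ulk1 with sildenafil and 19, 17.6 and 12.8 CPM in controls, with control replicate 3 below 2 of the sildenafil libraries (log2 fold change -0.28 ± 0.1657, adjusted p 0.24). Without that replicate the difference was -0.4332 (adjusted p 0.004). This was the 1 of 14 alternatives in which Ulk1 passed in LLC, and over them its values ran from -0.4332 to 0.0958.

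Ulk2, the second ULK kinase, gave 60, 61.9 and 65.3 CPM with sildenafil and 38.4, 38.1 and 38 CPM in controls of 4T1, a 1.63-fold rise (log2 fold change 0.71 ± 0.0389, adjusted p 3.03e-09). The controls differed by less than 1 CPM. In MC38 it averaged 60.7 ± 0.9 CPM with sildenafil and 57.2 ± 1.1 CPM in controls (adjusted p 0.081), and in LLC 22.6 ± 0.617 CPM and 23.6 ± 1.65 CPM (adjusted p 0.527). Atg13, the regulatory subunit that joins the kinase to its scaffold, rose in 4T1 by 0.35 ± 0.0337 (adjusted p 6.12e-07) and in MC38 by 0.23 ± 0.064 (adjusted p 0.00976). Rb1cc1, the scaffold FIP200, rose in 4T1 by 0.2 ± 0.0406 (adjusted p 0.000666). Atg101, the partner of Atg13, was the 1 gene of the complex that rose in LLC, with 28.5, 30.5 and 27.3 CPM with sildenafil and 24.1, 23 and 24.9 CPM in controls (log2 fold change 0.26 ± 0.0622, adjusted p 0.0131). That call was lost without sildenafil replicate 2 (adjusted p 0.0642) and with the Gm26917 covariate (adjusted p 0.0618).

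Of the class III PI3K complex, 3 of 6 genes rose and 1 fell in 4T1, 1 rose in MC38 and 0 in LLC, and 0 fell in MC38 or LLC. The rise count in MC38 was near the share of all genes. Becn1, the scaffold beclin 1, showed no difference past the threshold in any line, with 93.1 ± 2.39 CPM in 4T1 with sildenafil and 92.4 ± 2.29 CPM in controls, 116 ± 0.708 CPM and 119 ± 4.44 CPM in MC38, and 61.3 ± 1.34 CPM and 58.8 ± 3.08 CPM in LLC. Its standard errors were 0.0343, 0.0327 and 0.0521 on the log2 scale. Exons of Cntd1 on the opposite strand cover 43.9% of the Becn1 exon bases, and the strand setting of the counting is not given in the sources used here. Pik3c3, the lipid kinase itself, rose in 4T1 by 0.44 ± 0.0488 (adjusted p 2.81e-06) and in MC38 by 0.18 ± 0.0473 (adjusted p 0.00813). In LLC it averaged 44.2 ± 2.02 CPM with sildenafil and 44.1 ± 2.44 CPM in controls.

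Atg14, the subunit that directs the kinase to autophagosome sites, rose in 4T1 by 0.41 ± 0.0462 (adjusted p 3.02e-06), with 21.3, 21.2 and 21.8 CPM with sildenafil and 16.3, 16 and 16.1 CPM in controls. Uvrag, which replaces Atg14 in the endosomal form of the complex, rose in 4T1 by 0.3 ± 0.0397 (adjusted p 1.72e-05). Exons of Gm45187 on the opposite strand cover 17.6% of the Uvrag exon bases. Ambra1, which binds beclin 1 and the ULK kinase, fell in 4T1, with 42.8, 41.9 and 44.9 CPM with sildenafil and 51.1, 51.3 and 52.3 CPM in controls (log2 fold change -0.26 ± 0.0376, adjusted p 3.98e-05). The 3 sildenafil libraries lay below all 3 controls. Pik3r4, the regulatory subunit VPS15, passed in no line.

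Of the 6 genes of lipid supply and phagophore growth, 2 rose and 2 fell in 4T1, 4 rose and 0 fell in MC38, and 0 rose and 1 fell in LLC. The 4T1 counts were near the shares of all genes, 33.5% and 33.3%. The paralogs Atg2a and Atg2b encode the lipid transfer proteins that feed the growing membrane, and in 4T1 they went opposite ways. Atg2a had 44.8, 45.1 and 52.7 CPM with sildenafil and 31.1, 30.1 and 29.6 CPM in controls of 4T1 (log2 fold change 0.65 ± 0.0591, adjusted p 6.62e-07). Atg2b had 71.8, 73.6 and 76.6 CPM with sildenafil and 101, 99.9 and 96.9 CPM in controls of 4T1 (log2 fold change -0.42 ± 0.0353, adjusted p 1.66e-07). In LLC, Atg2b fell as well, with 109, 105 and 109 CPM with sildenafil and 145, 156 and 138 CPM in controls (log2 fold change -0.45 ± 0.0522, adjusted p 0.000345). The groups did not overlap in either line, and the fall in LLC passed under every alternative tried, with values of -0.4785 to -0.3953. In MC38 Atg2b averaged 89 ± 2.28 CPM with sildenafil and 90.6 ± 2.19 CPM in controls (adjusted p 0.601).

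Atg9a, the membrane protein of the seed vesicles, rose in 4T1 by 0.52 ± 0.04 (adjusted p 7.65e-08) and in MC38 by 0.34 ± 0.0466 (adjusted p 3.35e-05). Exons of Gm29253 on the same strand cover 31.8% of its exon bases. Wipi1 and Wipi2 encode proteins that bind phosphatidylinositol 3-phosphate. Wipi1 rose in MC38, with 19.7, 18.2 and 19 CPM with sildenafil and 14.6, 14.8 and 13.5 CPM in controls (log2 fold change 0.41 ± 0.0591, adjusted p 6.02e-05). It averaged 52.1 ± 2.8 CPM with sildenafil and 51 ± 1.26 CPM in controls of 4T1, and 31.3 ± 2.09 CPM and 32.5 ± 1.13 CPM in LLC. These pairs of groups overlapped.

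Wipi2 fell in 4T1, with 167, 168 and 163 CPM with sildenafil and 172, 181 and 179 CPM in controls (log2 fold change -0.1 ± 0.03, adjusted p 0.0111). This call was lost when libraries were scaled by their totals alone (-0.0289, adjusted p 0.375) or control replicate 2 was left out (adjusted p 0.0615). Its sign turned with the Gm26917 covariate (0.074, adjusted p 0.832), which could not be separated from treatment in 4T1. In MC38 Wipi2 rose, with 89.2, 88.3 and 87.3 CPM with sildenafil and 79, 77.8 and 78.9 CPM in controls (log2 fold change 0.17 ± 0.0311, adjusted p 0.000529). LLC averaged 96.1 ± 0.845 CPM of Wipi2 with sildenafil and 94.4 ± 0.846 CPM in controls (adjusted p 0.667). Vmp1, a lipid scramblase of the endoplasmic reticulum, rose in MC38 by 0.11 ± 0.0301 (adjusted p 0.00761).

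Of the 10 conjugation genes, 3 rose and 2 fell in 4T1, 1 rose and 1 fell in MC38, and 2 rose and 1 fell in LLC. The medians were 0.06, 0.05 and 0.09. Those counts were near or under the shares of all genes. Of all genes tested, 33.5% rose and 33.3% fell in 4T1, 19.5% and 18.3% in MC38, and 15.1% and 12.2% in LLC. Atg3, which transfers ATG8 proteins to lipid, had 43.6, 41.7 and 40.6 CPM with sildenafil and 48.3, 50 and 48.2 CPM in controls of 4T1 (log2 fold change -0.22 ± 0.0389, adjusted p 0.00024). In MC38 Atg3 fell too, with 30.7, 31.7 and 30.9 CPM with sildenafil and 36.8, 35 and 32.9 CPM in controls (log2 fold change -0.17 ± 0.0488, adjusted p 0.0135). No sildenafil library of either line reached its lowest control, but the MC38 call was lost without control replicate 1 (adjusted p 0.0805). It was also lost with the Gm26917 covariate (adjusted p 0.0807), which could not be separated from treatment in MC38. In LLC Atg3 averaged 34.8 ± 1.12 CPM with sildenafil and 32.7 ± 1.11 CPM in controls (adjusted p 0.229).

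Atg5, which joins with Atg12 and Atg16l1 to direct that transfer, passed in opposite directions in 4T1 and LLC. 4T1 had 32.1, 31.9 and 30 CPM of Atg5 with sildenafil and 36.1, 41 and 39.5 CPM in controls, and fell (log2 fold change -0.31 ± 0.0511, adjusted p 0.000111). LLC had 32.8, 35.4 and 32.8 CPM of Atg5 with sildenafil and 28.8, 30.8 and 29.9 CPM in controls, and rose (log2 fold change 0.18 ± 0.0563, adjusted p 0.0426). The LLC call failed under 8 of 14 alternatives, DESeq2 among them (adjusted p 0.104). Atg12 rose in MC38 by 0.32 ± 0.0601 (adjusted p 0.000565) and in LLC by 0.23 ± 0.0537 (adjusted p 0.0128), the second lost without sildenafil replicate 2 (adjusted p 0.0611). Atg16l1, Atg7 (the activating enzyme) and Atg10 (the conjugating enzyme for Atg12) passed in no line.

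The ATG4 genes encode the proteases that trim ATG8 proteins and release them from lipid. Of these 4, Atg4a, Atg4c and Atg4d rose in 4T1, by 0.36 ± 0.0646, 0.48 ± 0.0547 and 0.36 ± 0.0648 (adjusted p 0.000218, 3.82e-06 and 0.000259), while Atg4b averaged 46.9 ± 0.916 CPM with sildenafil and 45.5 ± 0.971 CPM in controls (adjusted p 0.327). Exons of Kri1 on the opposite strand cover 19.3% of the Atg4d exon bases. Atg4c had 18.1, 18.3 and 18.8 CPM with sildenafil and 13.9, 13.2 and 12.5 CPM in controls of 4T1. In LLC, Atg4c had 7.52, 6.53 and 7.38 CPM with sildenafil and 11.5, 10.7 and 8.2 CPM in controls, and fell (log2 fold change -0.5 ± 0.1301, adjusted p 0.018). The LLC controls spread more widely than its sildenafil libraries. That call was lost without control replicate 1 or 2 or sildenafil replicate 2 or 3 (adjusted p 0.077, 0.0693, 0.0843 and 0.0623), and 5 of 14 alternatives lost it. None of the 4 proteases passed in MC38.

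All 5 ATG8 family genes rose in all 3 lines, and in none of these 15 comparisons did a sildenafil library fall to the level of a control. Their median log2 fold change was 0.98 in 4T1, 0.26 in MC38 and 0.43 in LLC. The family stayed called in LLC (5 of 5) with the Gm26917 level as a covariate, while 4 were called in 4T1 and 2 in MC38. ATG8 proteins coat the autophagosome membrane; Map1lc3a and Map1lc3b encode LC3 proteins, and Gabarap, Gabarapl1 and Gabarapl2 the GABARAP group.

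Map1lc3a (chr2:155276297-155278073, plus strand, GRCm38) had 19.5, 18.5 and 18.9 CPM with sildenafil and 8.48, 8.45 and 8.4 CPM in controls of 4T1. That 2.25-fold rise (log2 fold change 1.17 ± 0.0538, adjusted p 5.57e-10) shared the first rank among members in that line with Calcoco1. In LLC it had 7.28, 7.95 and 7.66 CPM with sildenafil and 5.32, 4.53 and 5.6 CPM in controls (log2 fold change 0.57 ± 0.1091, adjusted p 0.00486). MC38 had 14, 15.6 and 14.3 CPM with sildenafil and 13.2, 13.2 and 11.8 CPM in controls, a rise of 0.2 ± 0.0697 (adjusted p 0.0318). The MC38 call was the least firm of the family: it was lost with DESeq2 (adjusted p 0.118), without control replicate 3 (adjusted p 0.129) and without sildenafil replicate 2 (adjusted p 0.133). It was lost with the Gm26917 covariate too (adjusted p 0.911), which could not be separated from treatment in MC38.

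Map1lc3b (chr8:121590361-121598760, plus strand) had 242, 236 and 254 CPM with sildenafil and 125, 119.8 and 126 CPM in controls of 4T1 (log2 fold change 0.98 ± 0.0342, adjusted p 4.25e-11). In MC38 it had 168, 168 and 161 CPM with sildenafil and 119.6, 121 and 120.3 CPM in controls (log2 fold change 0.46 ± 0.0299, adjusted p 1.54e-08). LLC had 93.2, 94.7 and 91.3 CPM of Map1lc3b with sildenafil and 70.9, 66 and 70.5 CPM in controls (log2 fold change 0.43 ± 0.0472, adjusted p 0.000256). In each line the gap between groups was several times the range within either. Gabarap (chr11:69991143-69994951, plus strand) had 206, 205 and 202 CPM with sildenafil and 96.8, 100 and 99.5 CPM in controls of 4T1, a 2.07-fold rise (log2 fold change 1.05 ± 0.029, adjusted p 5.69e-12). In MC38 it had 193, 183 and 182 CPM with sildenafil and 142, 129.7 and 131 CPM in controls (log2 fold change 0.47 ± 0.0382, adjusted p 2.76e-07). LLC had 117, 117 and 123 CPM of Gabarap with sildenafil and 80.2, 81.6 and 91.5 CPM in controls (log2 fold change 0.49 ± 0.0574, adjusted p 0.000345). Gabarap and Map1lc3b were called in every line under every alternative. The Gm26917 covariate was among these, but in 4T1 and MC38 it could not be separated from treatment, so the calls kept there do not test its part.

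**Figure D2:**
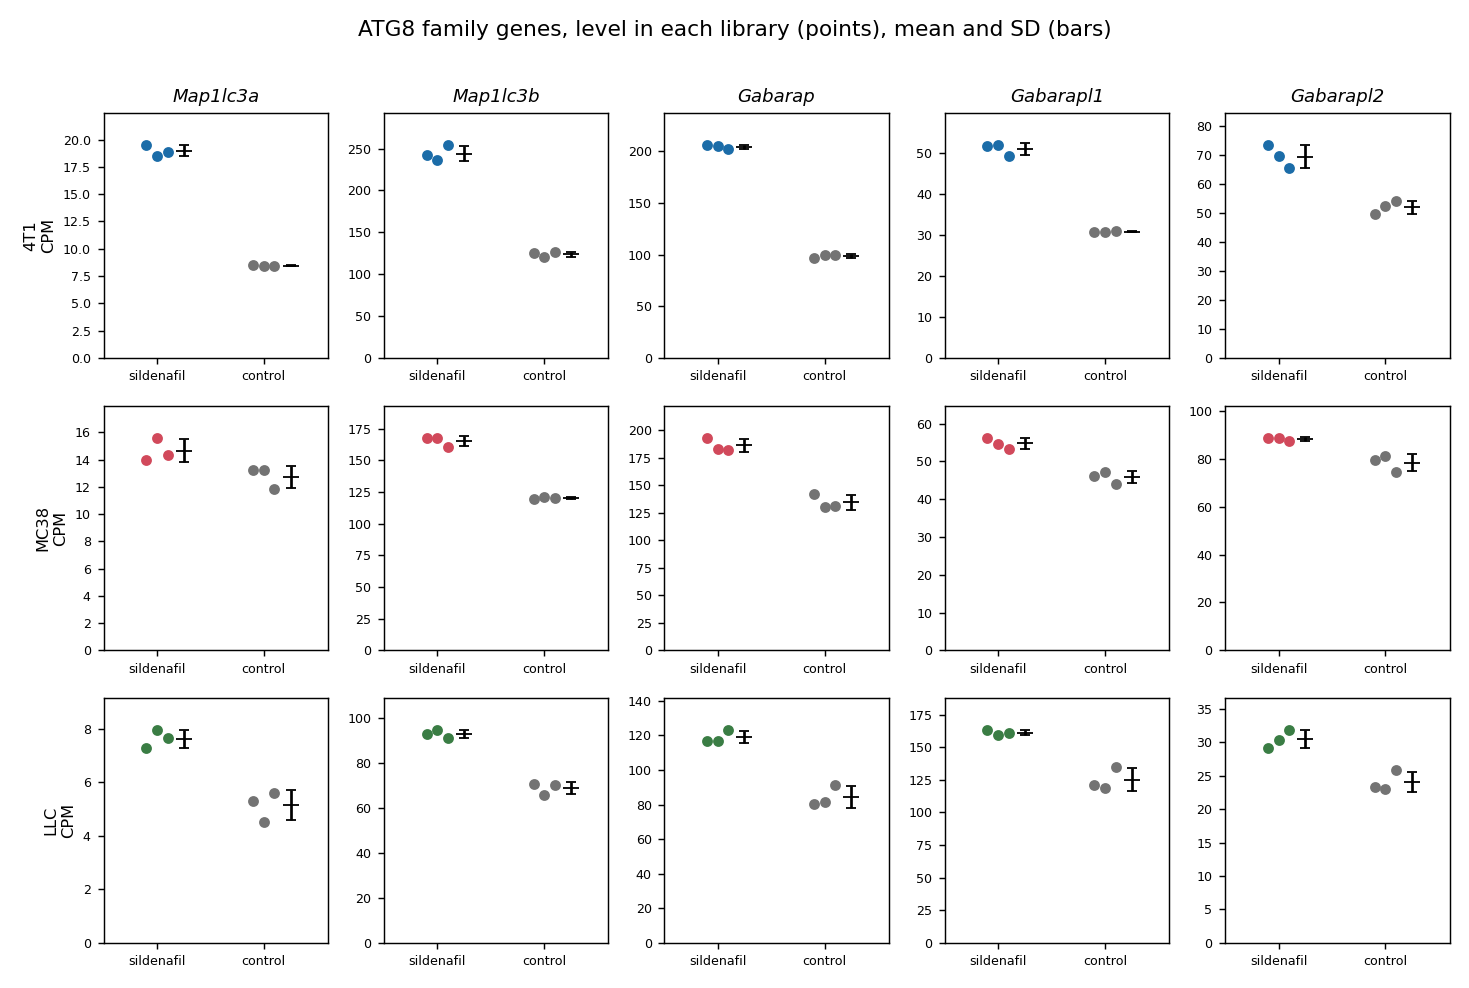
CPM (y axes, from 0) of the 5 ATG8 family genes in each sildenafil and control library of 4T1 (top), MC38 (middle) and LLC (bottom), with means and SD as bars. Every sildenafil point lies above every control point of its line; in 4T1, Gabarap was at 202 to 206 CPM with sildenafil and 96.8 to 100 CPM in controls.

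Gabarapl1 (chr6:129533160-129542346, plus strand) had 51.9, 52 and 49.3 CPM with sildenafil and 30.8, 30.7 and 30.9 CPM in controls of 4T1 (log2 fold change 0.73 ± 0.0383, adjusted p 1.92e-09). In LLC it had 163, 159 and 161 CPM with sildenafil and 121, 119 and 135 CPM in controls (log2 fold change 0.36 ± 0.054, adjusted p 0.00122). MC38 had 56.3, 54.7 and 53.3 CPM of Gabarapl1 with sildenafil and 46.2, 47.2 and 44.1 CPM in controls (log2 fold change 0.26 ± 0.041, adjusted p 0.00015). The gene 1700101I11Rik, on the opposite strand, covers 28.3% of its exon bases. Gabarapl2 (chr8:111940703-111953612, plus strand) rose least of the family in 4T1, with 73.5, 69.7 and 65.5 CPM with sildenafil and 49.7, 52.3 and 54.1 CPM in controls (log2 fold change 0.42 ± 0.0463, adjusted p 2.51e-06). In MC38 it had 88.9, 88.9 and 87.4 CPM with sildenafil and 79.7, 81.2 and 74.4 CPM in controls (log2 fold change 0.17 ± 0.0364, adjusted p 0.00152). LLC had 29.1, 30.4 and 31.8 CPM of Gabarapl2 with sildenafil and 23.3, 23 and 25.8 CPM in controls (log2 fold change 0.34 ± 0.0646, adjusted p 0.00449). With the Gm26917 covariate the Gabarapl1 call in MC38 was lost (adjusted p 0.517). Those of Gabarapl2 in 4T1 and MC38 were lost too (adjusted p 0.0739 and 0.901). In 4T1 and MC38 the covariate could not be separated from treatment.

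Per exon length (RPKM, the CPM divided by kilobases of exon, computed from the counts), the summed level of the 5 genes was 208 ± 3.76 RPKM with sildenafil and 109.8 ± 1.39 RPKM in controls of 4T1, 210.5 ± 4.71 RPKM and 164 ± 5.35 RPKM in MC38, and 176 ± 3.06 RPKM and 129.7 ± 9.18 RPKM in LLC (SD, n = 3 each). The sum was higher with sildenafil in every line, and the control sums were unequal between lines. Gabarap made up 51.7 ± 0.348% of the sum with sildenafil and 46.7 ± 0.43% in controls of 4T1, and 50.3 ± 0.747% and 46.6 ± 1.39% in MC38. Such shares depend on the exon length used, 7517 bases for Map1lc3b and 1844 for Gabarap. By CPM, Map1lc3b was above Gabarap in 4T1 (244 and 205 with sildenafil, 123 and 98.8 in controls). In MC38 Map1lc3b was below it (166 and 186 with sildenafil, 120.3 and 134 in controls). In LLC Gabarapl1 had the highest share, 45.4 ± 0.778% with sildenafil and 47.2 ± 0.146% in controls, where it was at 11.8 ± 0.255% and 13.3 ± 0.192% in 4T1 and at 13.6 ± 0.0648% and 14.6 ± 0.418% in MC38. The share of Gabarapl2 in 4T1 was 13.9 ± 0.621% with sildenafil and 19.5 ± 0.522% in controls. Its RNA rose there, by less than that of the other 4 genes.

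**Figure D3:**
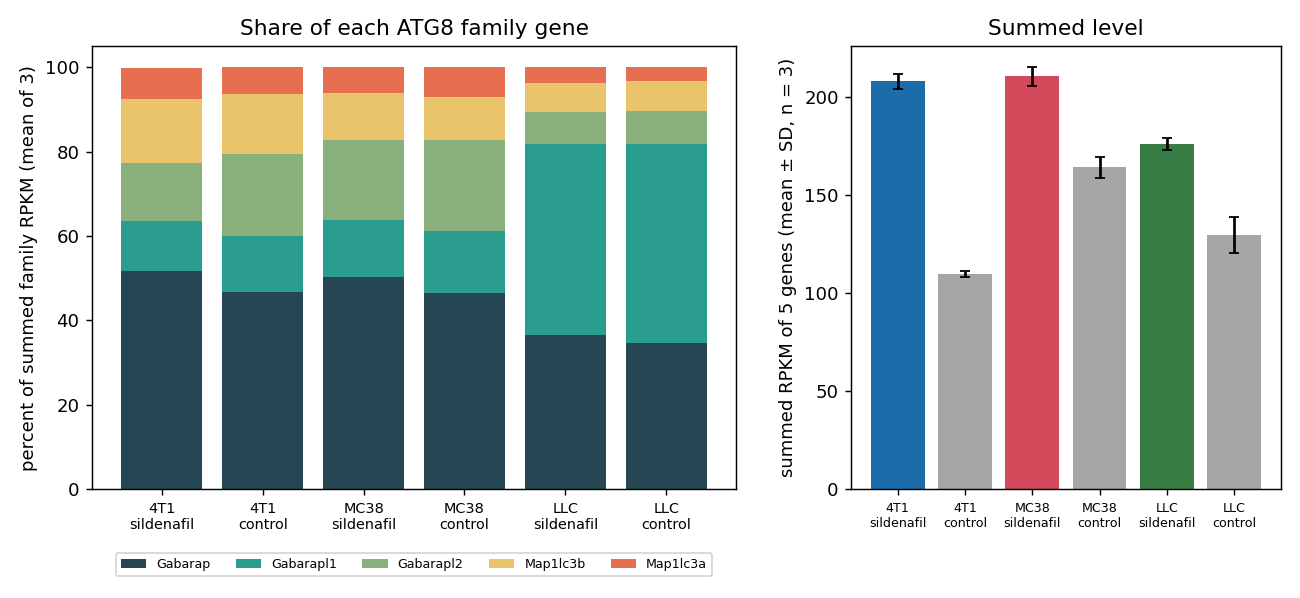
Left, the percent of summed ATG8 family RPKM from each gene (stacked, mean of 3 libraries) in the 6 groups; right, the summed RPKM of the 5 genes (mean ± SD, n = 3). By RPKM, which depends on the exon length used, Gabarap is the largest block in 4T1 and MC38 and Gabarapl1 in LLC. Each sildenafil bar on the right stands above its control.

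All 5 cargo receptor genes rose in 4T1 and in MC38, while 3 rose and 1 fell in LLC; the medians were 0.37, 0.42 and 0.22. With the Gm26917 covariate 2, 3 and 3 rose. Sqstm1, which encodes p62, the receptor most used to follow autophagy, had 1663, 1669 and 1773 CPM with sildenafil and 1327, 1374 and 1409 CPM in controls of 4T1 (log2 fold change 0.31 ± 0.0349, adjusted p 2.89e-06). In MC38 Sqstm1 had 770.1, 764 and 738 CPM with sildenafil and 559, 574 and 561 CPM in controls (log2 fold change 0.42 ± 0.0282, adjusted p 2.17e-08). In both lines all sildenafil libraries lay above all controls. LLC had 530.1, 515 and 541 CPM of Sqstm1 with sildenafil and 554, 553 and 527 CPM in controls, and the groups overlapped (log2 fold change -0.04 ± 0.0475, adjusted p 0.522). Exons of Mrnip on the opposite strand cover 17.3% of the Sqstm1 exon bases.

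Nbr1, a ubiquitin-binding receptor like p62, had 163, 167 and 185 CPM with sildenafil and 135, 131 and 134 CPM in controls of 4T1 (log2 fold change 0.37 ± 0.042, adjusted p 4.29e-06). In MC38 it had 170, 173 and 169.5 CPM with sildenafil and 123, 123 and 122 CPM in controls, a rise of 0.48 ± 0.0284 (adjusted p 5.3e-09). LLC had 45, 45.2 and 44.2 CPM of Nbr1 with sildenafil and 38, 39.7 and 37.9 CPM in controls (log2 fold change 0.22 ± 0.0479, adjusted p 0.00903). The groups were apart in all 3 lines. Optn, encoding optineurin, a receptor for damaged mitochondria and bacteria, had 76.7, 78.3 and 81.3 CPM with sildenafil and 41, 42.2 and 40.2 CPM in controls of 4T1, a 1.91-fold rise (log2 fold change 0.94 ± 0.037, adjusted p 1.39e-10). In MC38 Optn had the highest fold change of all members, with 20.4, 20.2 and 21.9 CPM with sildenafil and 14.6, 14.5 and 13.4 CPM in controls (log2 fold change 0.56 ± 0.0583, adjusted p 2.51e-06). LLC had 7.35, 7.15 and 8.09 CPM of Optn with sildenafil and 5.63, 5.24 and 5.01 CPM in controls (log2 fold change 0.51 ± 0.1019, adjusted p 0.00574).

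Tax1bp1, which works with p62 and Nbr1 on ubiquitin-tagged aggregates, rose by smaller amounts. It had 135, 141 and 131 CPM with sildenafil and 115, 113 and 109 CPM in controls of 4T1 (log2 fold change 0.28 ± 0.0356, adjusted p 1.19e-05). MC38 had 171, 168 and 171 CPM of Tax1bp1 with sildenafil and 162, 159 and 153 CPM in controls (log2 fold change 0.11 ± 0.0306, adjusted p 0.012). In LLC Tax1bp1 had 191, 200.5 and 203 CPM with sildenafil and 164, 172 and 173 CPM in controls (log2 fold change 0.22 ± 0.0456, adjusted p 0.00633). No groups overlapped.

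Calcoco1, described in human cells as a receptor for endoplasmic reticulum and Golgi membranes, was the member with the most unlike responses. In 4T1 it had 47.4, 48.3 and 54.3 CPM with sildenafil and 24.5, 22.7 and 19 CPM in controls, a 2.25-fold rise (log2 fold change 1.17 ± 0.0883, adjusted p 2.41e-06). MC38 had 15.4, 14.7 and 15.8 CPM of Calcoco1 with sildenafil and 11, 11.8 and 13.2 CPM in controls (log2 fold change 0.35 ± 0.072, adjusted p 0.00125). LLC had 40.6, 36 and 35.1 CPM of Calcoco1 with sildenafil and 48.8, 46.3 and 40.4 CPM in controls, and fell by 0.28 ± 0.0813 on the log2 scale (adjusted p 0.0319). There sildenafil replicate 1 lay just above control replicate 3. The LLC call was lost without control replicate 1 or 2 or sildenafil replicate 2 or 3 (adjusted p 0.11, 0.108, 0.125 and 0.129) and with the Gm26917 covariate (-0.0838, adjusted p 0.385).

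**Figure D4:**
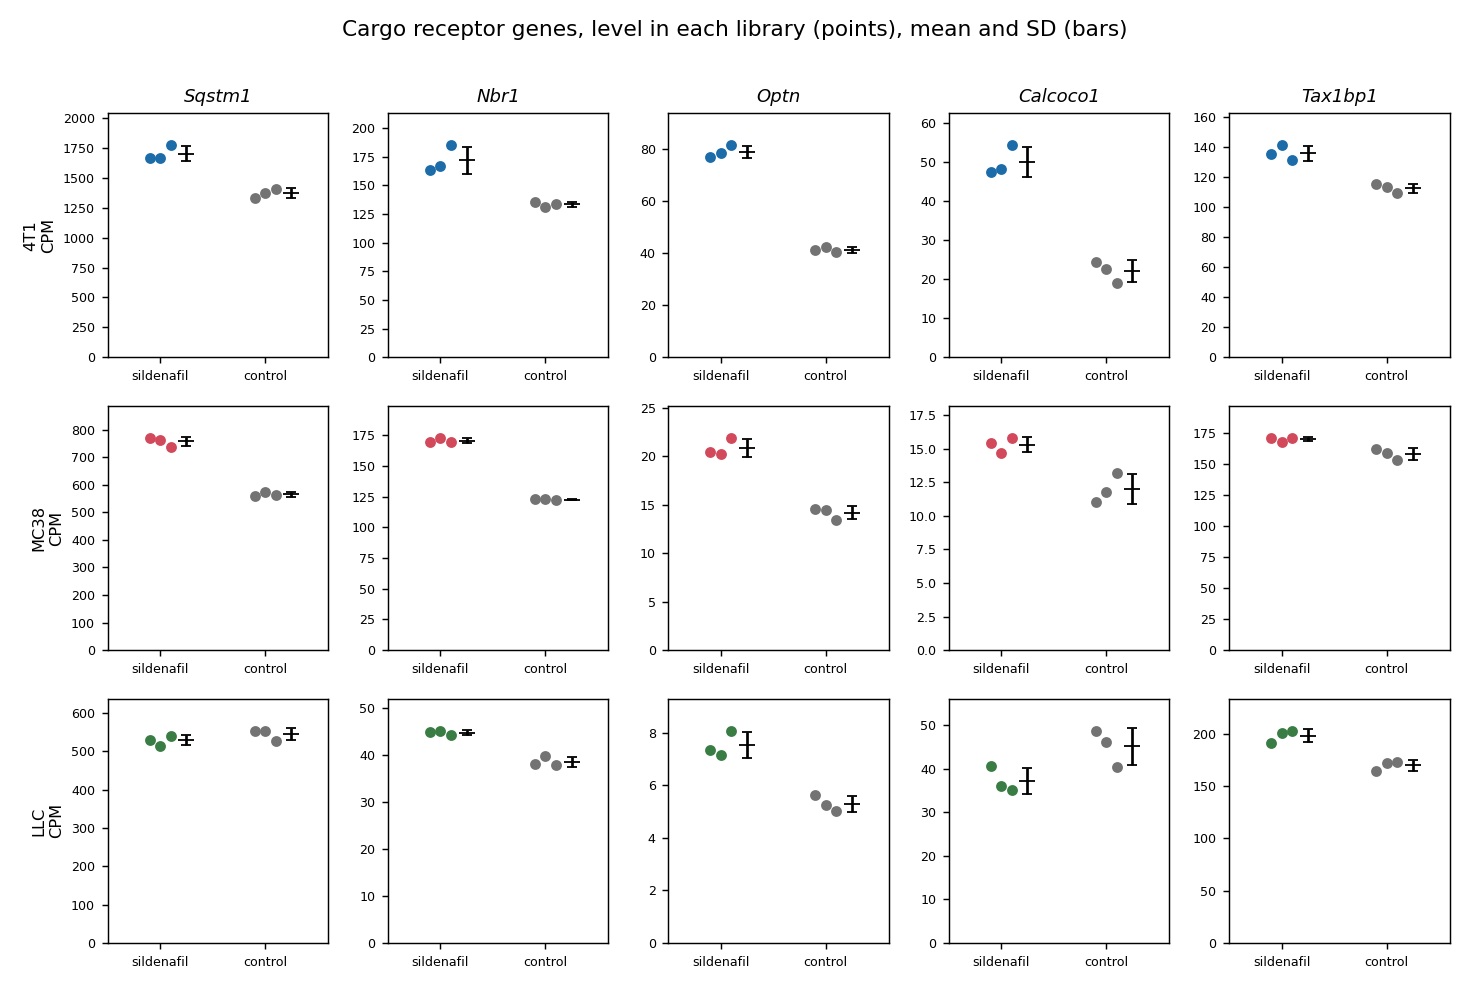
CPM (y axes, from 0) of the 5 cargo receptor genes in each sildenafil and control library of 4T1 (top), MC38 (middle) and LLC (bottom), with means and SD as bars. The groups are apart for all 5 genes in 4T1 and MC38; in LLC, Sqstm1 and Calcoco1 overlap, Calcoco1 with means of 37.2 CPM and 45.2 CPM.

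Stx17, the SNARE of the finished autophagosome that drives its fusion with the lysosome, rose in 4T1, with 35.1, 36 and 38 CPM with sildenafil and 31.1, 31.1 and 28.5 CPM in controls (log2 fold change 0.26 ± 0.0477, adjusted p 0.000264). MC38 had 28.1, 31.1 and 29 CPM of Stx17 with sildenafil and 25.3, 25.1 and 24.7 CPM in controls (log2 fold change 0.23 ± 0.0496, adjusted p 0.00172). In LLC Stx17 averaged 47.5 ± 0.426 CPM with sildenafil and 46 ± 1.56 CPM in controls (adjusted p 0.471).

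Among 64 other genes of the pathway, of which 63 were tested in each line, 38 rose and 8 fell in 4T1, 27 rose and 5 fell in MC38, and 15 rose and 8 fell in LLC. Calls of these other genes, here and below, were not followed through the alternatives used for members. In LLC, 13.4% to 43.6% of all genes were called, depending on the library left out. Of all genes tested, 33.5% rose and 33.3% fell in 4T1, 19.5% and 18.3% in MC38, and 15.1% and 12.2% in LLC. The partners of Stx17 in fusion, Snap29 and Vamp8, rose in all lines: Snap29 by 0.58 ± 0.0431, 0.41 ± 0.0434 and 0.52 ± 0.061 in 4T1, MC38 and LLC (adjusted p 5.13e-08, 2.71e-06 and 0.000344), and Vamp8 by 0.85 ± 0.0473, 0.28 ± 0.0448 and 0.52 ± 0.065 (adjusted p 3.43e-09, 0.000148 and 0.000518). Trp53inp1, a p53 target whose product binds ATG8 proteins, rose 2.6 ± 0.0972 on the log2 scale in 4T1, at 53 CPM with sildenafil and 8.7 CPM in controls (adjusted p 1.03e-08). It rose 1.83 ± 0.1479 in MC38 and 0.55 ± 0.106 in LLC (adjusted p 1.91e-07 and 0.00485). Zfyve1, which marks the membrane sites where autophagosomes form, and Tecpr1, a tether for lysosomes, rose in 4T1 by 1.17 ± 0.0511 and 1.07 ± 0.0544 (adjusted p 3.22e-10 and 3.53e-09) and in MC38 by 0.4 ± 0.0521 and 0.58 ± 0.049 (adjusted p 2.16e-05 and 2.77e-07). In LLC their values were 0.09 and -0.04 (adjusted p 0.244 and 0.694). Tmem41b, a scramblase that works with Vmp1, rose by 0.71 ± 0.035, 0.61 ± 0.0343 and 0.37 ± 0.0667 (adjusted p 1.17e-09, 2.87e-09 and 0.00359).

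Of 11 selective receptors outside the 38, 9 rose and 2 fell in 4T1, 6 rose and 2 fell in MC38, and 2 rose and 2 fell in LLC. Of all genes tested, 33.5% rose and 33.3% fell in 4T1, and 19.5% and 18.3% in MC38. In LLC the shares were 15.1% and 12.2%, and the receptor counts there were near them. Ccpg1, a receptor of the endoplasmic reticulum, rose in all lines, by 1.04 ± 0.0499, 0.47 ± 0.0523 and 0.44 ± 0.0834 in 4T1, MC38 and LLC (adjusted p 8.34e-10, 4.85e-06 and 0.00446). Bnip3, a hypoxia-induced receptor of mitochondria, averaged 167 CPM with sildenafil and 82.7 CPM in controls of 4T1, 71.3 CPM and 28.4 CPM in MC38, and 130.1 CPM and 196 CPM in LLC. It rose in 4T1 and MC38 (1.01 ± 0.0801 and 1.33 ± 0.0571, adjusted p 1.45e-05 and 1.89e-09) and fell in LLC (-0.59 ± 0.1076, adjusted p 0.00855). Bnip3l split the same way, at 0.78 ± 0.0526, 0.48 ± 0.0397 and -0.18 ± 0.0479 (adjusted p 2.62e-07, 2.64e-07 and 0.0185). Whether the LLC falls of Bnip3 and Bnip3l hold with a library left out was not tested. Phb2, a prohibitin of the inner mitochondrial membrane, fell in 4T1 and MC38, by 0.5 ± 0.0375 and 0.28 ± 0.0294 on the log2 scale (adjusted p 5.79e-08 and 2.71e-06); in LLC its value was -0.03 (adjusted p 0.615).

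Of 11 transcription factors, 6 rose and 1 fell in 4T1, 3 rose in MC38, and 1 fell in LLC. Of all genes tested, 33.5% rose and 33.3% fell in 4T1, 19.5% and 18.3% in MC38, and 15.1% and 12.2% in LLC. Tfeb rose in 4T1, at 13.4 CPM with sildenafil and 9.76 CPM in controls (log2 fold change 0.46 ± 0.063, adjusted p 2.27e-05), and passed in neither other line, where it had 6.98, 7.05 and 6.36 CPM with sildenafil and 5.71, 6.21 and 5.38 CPM in controls of MC38, and 4.93, 4.01 and 4.35 CPM and 3.9, 3.74 and 4.07 CPM in LLC. Tfe3 passed in no line, with adjusted p of 0.139, 0.0501 and 0.153 in 4T1, MC38 and LLC. Foxo4, a forkhead factor, rose in 4T1 by 0.82 ± 0.0424 (adjusted p 1.64e-09) and had values of 0.03 and -0.2 in MC38 and LLC (adjusted p 0.628 and 0.0799). Ddit3, a stress factor induced through ATF4, rose in 4T1 and MC38 (0.58 ± 0.0355 and 1.4 ± 0.0664, adjusted p 8.27e-09 and 3.2e-10) and fell in LLC (-0.58 ± 0.0704, adjusted p 0.000446). Atf4 itself rose in MC38, at 420.1 CPM with sildenafil and 271 CPM in controls (log2 fold change 0.63 ± 0.0286, adjusted p 1.7e-10), with values of 0.06 in 4T1 and -0.02 in LLC (adjusted p 0.177 and 0.743). Kinases and regulators upstream of ULK were set beside the same shares of all genes. Per line 16 were tested, without Prkaa2 in 4T1 and MC38 and without Sesn3 in LLC. In 4T1 6 rose, near the share of all genes, and 3 fell. In MC38 5 rose and 1 fell, and in LLC 5 rose and 5 fell. Of these, Sesn1 and Ddit4, inhibitors of the kinase mTOR, rose in all lines: Sesn1 by 0.92 ± 0.0513, 0.39 ± 0.0458 and 0.46 ± 0.0679 in 4T1, MC38 and LLC (adjusted p 3.37e-09, 7.97e-06 and 0.0012) and Ddit4 by 0.97 ± 0.0287, 0.87 ± 0.0618 and 0.43 ± 0.07 (adjusted p 9.3e-12, 2.09e-07 and 0.00205). Sesn3, of the same family as Sesn1, averaged 182 CPM with sildenafil and 59.9 CPM in controls of 4T1 (log2 fold change 1.61 ± 0.047, adjusted p 2.01e-11) and 35.4 CPM and 27.3 CPM in MC38 (0.37 ± 0.0567, adjusted p 9.24e-05); in LLC it was at 0 in all libraries.

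The responses of the lines were then compared in a fit of all 18 libraries, in which the difference of 2 log2 fold changes was tested. Between MC38 and 4T1, 25 members differed, 8 with the higher and 17 with the lower response in MC38, where 17.9% and 16.7% of 16040 genes tested did so (34.6% in either direction). Between LLC and 4T1, 25 differed, 5 higher and 20 lower in LLC, where 21.8% and 20.2% of genes did so (42% in either direction). Between LLC and MC38, 11 differed, 3 higher and 8 lower in LLC, where 12.6% and 9.68% of genes did so (22.3% in either direction). The first 2 contrasts use the same 4T1 libraries, and each pair of contrasts shares 1 line, so they are not independent.

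All 5 ATG8 genes had a smaller response in MC38 than in 4T1. For Map1lc3a the log2 fold changes were 0.2 in MC38 and 1.17 in 4T1, a difference of -0.98 ± 0.0985 (adjusted p 5.59e-08). Gabarap differed by -0.6 ± 0.0655 and Gabarapl2 by -0.26 ± 0.0722 (adjusted p 2.01e-07 and 0.0059). LLC also had a smaller response than 4T1 for 4 of the 5; Gabarapl2 differed by -0.08 ± 0.0777 (adjusted p 0.462). Between LLC and MC38, Map1lc3a passed, with the larger response in LLC (0.38 ± 0.1115, adjusted p 0.0173). For Map1lc3b and Gabarap the LLC minus MC38 differences were -0.02 ± 0.0524 and 0.04 ± 0.0666 (adjusted p 0.907 and 0.781).

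The ULK kinases responded less in MC38 and LLC than in 4T1. Ulk1 differed by -0.86 ± 0.159 between MC38 and 4T1 (adjusted p 0.00045) and by -1.05 ± 0.1647 between LLC and 4T1 (adjusted p 7.47e-05), and Ulk2 by -0.64 ± 0.0604 and -0.77 ± 0.0649 (adjusted p 2.32e-08 and 2.55e-09). Calcoco1 differed in all 3 pairs, by -0.84 ± 0.1371 (MC38 minus 4T1, adjusted p 8.9e-05), -1.45 ± 0.1243 (LLC minus 4T1, adjusted p 2.91e-08) and -0.61 ± 0.138 (LLC minus MC38, adjusted p 0.0034). Its order was thus 4T1, MC38, LLC, each step past the threshold. Atg4c differed by -0.98 ± 0.1348 between LLC and 4T1 (adjusted p 2.85e-06) and by -0.6 ± 0.1525 between LLC and MC38 (adjusted p 0.00629). Sqstm1 differed by -0.45 ± 0.0529 and Wipi1 by -0.45 ± 0.0811 between LLC and MC38 (adjusted p 1.59e-06 and 0.000312). Every contrast with LLC also differs in time, 48 hours against 24 hours.

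In control cells the members were set at unequal levels per exon length. Sqstm1 was the highest in each line, at 159.6 ± 3.79 RPKM in LLC, 176 ± 2.47 RPKM in MC38 and 391 ± 10.7 RPKM in 4T1. Next came Gabarapl1 at 61.2 ± 4.51 RPKM and Gabarap at 45 ± 3.46 RPKM in LLC, and Gabarap followed by Vmp1 in MC38 (76.3 ± 3.9 and 42.4 ± 0.601 RPKM) and 4T1 (51.3 ± 0.844 and 36.5 ± 0.098 RPKM). The lowest was Optn in LLC at 1.39 ± 0.0772 RPKM, Atg4d and Atg10 at 1.2 RPKM each in MC38 (SD 0.038 and 0.0285, not told apart by their spread), and Atg10 in 4T1 at 2 ± 0.119 RPKM.

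**Figure D5:**
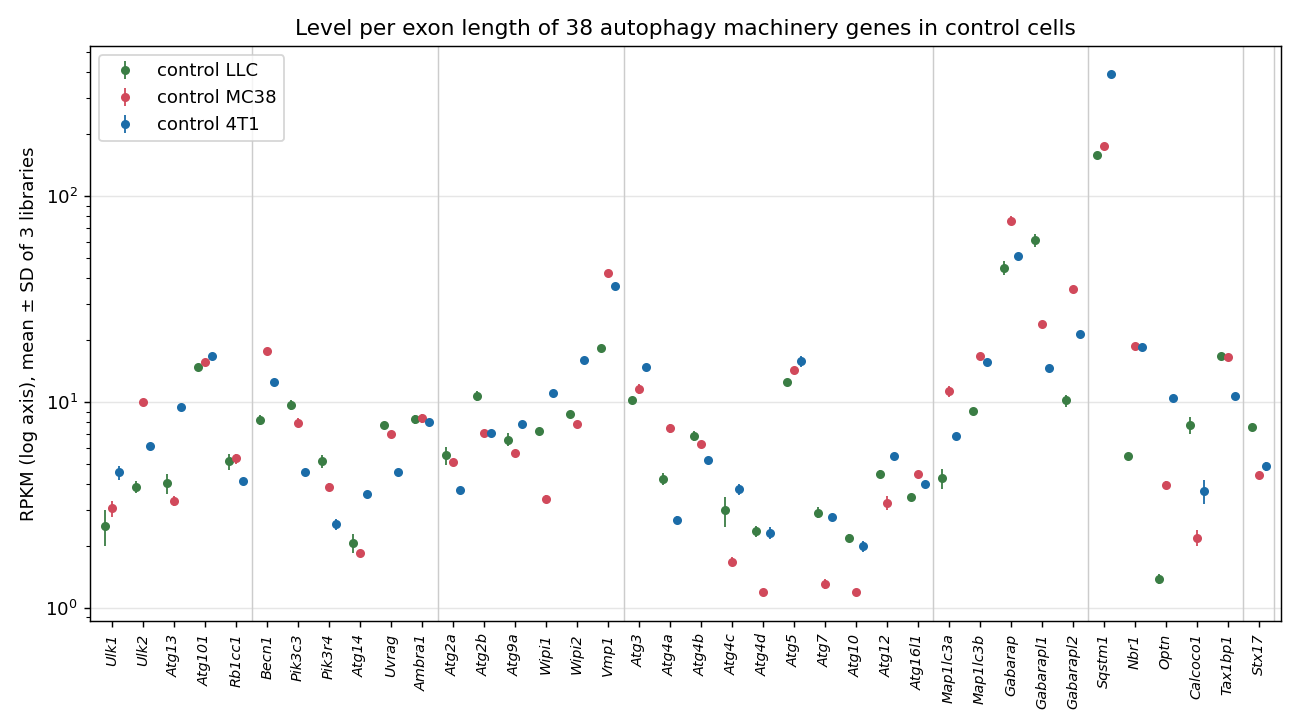
RPKM in control cells (log axis, mean ± SD, n = 3) of the 38 genes in LLC, MC38 and 4T1, in the order of roles used above, with grey lines between roles. Sqstm1 stands above all others in each line, and Optn and Nbr1 are lower in LLC than in the other lines.

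Controls of the lines differed at most members: 33 of 38 between MC38 and 4T1, 34 between LLC and 4T1 and 31 between LLC and MC38, where 84.5%, 86.7% and 77.2% of 15385 genes tested differed, so the members' counts were near those of all genes. By direction, 18 members were higher and 15 lower in MC38 than in 4T1 (44.3% and 40.2% of genes), 14 higher and 20 lower in LLC than in 4T1 (43.7% and 42.9%), and 17 higher and 14 lower in LLC than in MC38 (38.5% and 38.7%). These contrasts share control libraries in pairs. Scaling by library totals alone moved the median of all genes from 0.045 to -0.1 on the log2 scale for MC38 over 4T1. Optn was the member furthest apart between LLC and 4T1, at 1.39 RPKM in LLC and 10.5 ± 0.28 RPKM in 4T1 (log2 ratio -2.84 ± 0.0654, adjusted p 7.91e-14). Optn in MC38 was at 3.95 ± 0.174 RPKM, and the LLC over MC38 log2 ratio was -1.5 ± 0.0701 (adjusted p 1.72e-10). Sqstm1 was lower in LLC than in 4T1 (log2 ratio -1.21 ± 0.0397, adjusted p 2.94e-12). Gabarapl1 was higher in LLC, at 61.2 RPKM against 14.6 ± 0.0316 RPKM in 4T1 (log2 ratio 2.15 ± 0.0527, adjusted p 1.49e-13). Nbr1 was lower in LLC, at 5.51 ± 0.14 RPKM, than in MC38 (18.7 ± 0.0821 RPKM) and 4T1 (18.5 ± 0.26 RPKM), with log2 ratios of -1.74 ± 0.0377 and -1.67 ± 0.0374 (adjusted p 6.27e-14 and 6.05e-14). Between MC38 and 4T1 it did not pass (0.08 ± 0.0352, adjusted p 0.0589).

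Calcoco1 was higher in LLC, at 7.75 ± 0.71 RPKM, than in MC38 at 2.2 ± 0.205 RPKM (log2 ratio 1.83 ± 0.1101, adjusted p 3.35e-08), and Gabarapl2 lower, at 10.2 ± 0.694 RPKM in LLC and 35.3 ± 1.55 RPKM in MC38 (log2 ratio -1.78 ± 0.057, adjusted p 3.12e-12). Between MC38 and 4T1 the largest ratios were at Wipi1, with 3.4 ± 0.161 RPKM in MC38 and 11.1 ± 0.306 RPKM in 4T1 (log2 ratio -1.63 ± 0.0528, adjusted p 3.08e-12), and at Atg4a, with 7.46 ± 0.396 RPKM in MC38 and 2.69 ± 0.1 RPKM in 4T1 (log2 ratio 1.54 ± 0.0723, adjusted p 1.58e-10). Atg13 and Optn were lower in MC38 than in 4T1 (log2 ratios -1.46 ± 0.0738 and -1.34 ± 0.0572, adjusted p 3.43e-10 and 5.54e-11).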

How the data were processed

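Whole-transcriptome RNA was measured in 18 libraries of 3 lines. Per the labels' protocols, a stranded kit with poly(A) capture was used and both ends were read for 100 cycles. The authors deposited RSEM expected counts per gene, estimated counts that need not be whole; 4.3% to 6.91% of a library's gene values were not whole. The submitters' processing notes name bcl2fastq 2.17, cutadapt 1.18, STAR 2.7.0f, RSEM 1.3.1 and build mm10; no order, annotation release or setting for strand is given in the sources used here. Gene IDs matched GENCODE M21 (GRCm38) for all 55450 rows, which gave positions and exon lengths. RSEM shares reads between similar genes, so paralogs and overlapping genes are uncertain.

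Counts were rounded to whole numbers and tested in edgeR 4.0.16 (R 4.3.3) with TMM factors, its default expression filter and the robust quasi-likelihood F test, with Benjamini-Hochberg adjustment over all genes tested and a threshold of 0.05. Responses used the 6 libraries of a line, differences between responses all 18, and control levels the 9 controls. The SE is the log2 fold change over the square root of F. CPM used TMM factors within a line, or over all 18 libraries for markers and Gm26917, and RPKM those of all 18 libraries and the union of exons. A marker was above 1 CPM by its group mean. Figures were drawn with matplotlib 3.10.9. Members and lists were chosen with earlier results of these data known. Named genes were those called alike in all lines, those with up to 4 of the largest changes per line and direction or per pair of lines, those called in opposite directions, all ATG8 and receptor genes, and of other lists up to 3 per line with the smallest adjusted p, besides Tfeb and Tfe3. Alternatives were DESeq2 1.42.0, other scaling and filters, the replicate number as a block, all 18 libraries in 1 fit, a Gm26917 covariate and each library left out. Promoters came from RefSeq (GRCm38.p6). Replicates of a group differed by more than sampling noise.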

Additional observations from a re-analysis of the deposited data

Results flagged for a closer look

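In 12 cases a member's response to sildenafil differed between 2 lines in a test of the difference itself, and these were the largest such differences of each pair. Between MC38 and 4T1 the difference was -0.98 ± 0.0985 (SE, log2) for Map1lc3a, -0.86 ± 0.159 for Ulk1, -0.84 ± 0.1371 for Calcoco1 and -0.64 ± 0.0604 for Ulk2. The adjusted p-values were 5.59e-08, 0.00045, 8.9e-05 and 2.32e-08.

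LLC minus 4T1 gave -1.45 ± 0.1243 for Calcoco1, -1.05 ± 0.1647 for Ulk1, -0.98 ± 0.1348 for Atg4c and -0.77 ± 0.0649 for Ulk2. The adjusted p-values were 2.91e-08, 7.47e-05, 2.85e-06 and 2.55e-09. For LLC minus MC38 the values were -0.61 ± 0.138 for Calcoco1, -0.6 ± 0.1525 for Atg4c, -0.45 ± 0.0529 for Sqstm1 and -0.45 ± 0.0811 for Wipi1. The adjusted p-values were 0.0034, 0.00629, 1.59e-06 and 0.000312.

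All 12 responses were lower in the line named first. All are edgeR quasi-likelihood tests on 18 libraries. The fit that compares lines did not include Gm26917, whose level moved up with sildenafil in 4T1 and down in MC38, and its part in these differences was not tested.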

How the results depend on the processing

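Under the alternatives other than the Gm26917 covariate, 27 of 28 calls in 4T1 held in every one, 17 of 19 in MC38 (not Atg3 and Map1lc3a) and 9 of 14 in LLC (not Atg101, Atg4c, Atg5, Atg12 and Calcoco1); in 4T1 the exception was Wipi2. All 216 alternative values of the 12 listed differences between lines kept direction and call. With the covariate, 6 members rose and 0 fell in 4T1, with 2 receptors risen; 6 rose and 0 fell in MC38, with 2 ATG8 genes and 3 receptors risen; and 1 fell in LLC, where 8.54%, 7.69% and 16.8% of all genes were called in 4T1, MC38 and LLC. With it, called values changed sign for Atg5 (0.051), Wipi2 (0.074) and Nbr1 (-0.0127) in 4T1 and Pik3c3 (-0.0237) and Tax1bp1 (-0.0146) in MC38. Values in 4T1 also came down for Atg2a (0.0086), Stx17 (0.0324), Atg9a (0.1363) and Ulk1 (0.1481), and the cause was not tested. In 4T1 and MC38 the covariate could not be separated from treatment. With each library left out in turn, 0 to 2 members fell in MC38 and 1 to 7 in LLC, where 13.4% to 43.6% of all genes were called. Members called under neither setting changed sign in 45 values (-0.3765 to 0.1734).

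Deviations of same-numbered libraries of 4T1 correlated at -0.021, 0.103 and -0.068, and those with different numbers lay between -0.16 and 0.15. For MC38 the same-numbered values were 0.077, 0.068 and 0.267, with the others between -0.167 and 0.109. LLC gave 0.287, -0.14 and 0.155, with its others between -0.32 and 0.198. Over all genes, 43.9% were called for MC38 with the replicate number as a block, against 37.8% without it. LLC had 30.1% against 27.3%, while 4T1 had 65.3% against 66.7%. Whether replicate numbers pair samples was not tested beyond these values. With the replicate block, 23 members rose and 5 fell in 4T1, 19 rose and 1 fell in MC38 (Atg14 added, adjusted p 0.0438), and 11 rose and 3 fell in LLC. With 3 libraries a group, differences among members of low level, such as Atg10, could be missed.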
